A study of Mus musculus with 670 samples.

Results

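The 10 genes of matrix breakdown and its inhibition were followed in sorted mouse skeletal cells of 3 ages: the matrix metalloproteinase genes Mmp2, Mmp3, Mmp13 and Mmp14, the aggrecanase genes Adamts1, Adamts4 and Adamts5, and the inhibitor genes Timp1, Timp2 and Timp3. They were chosen by name, and all 10 had a row of their own among the 55604 gene rows of the table. The study sequenced single cells with SmartSeq2, a full-length method that turns the RNA of 1 sorted cell in 1 well into a library. Cells came from digested long bones of untreated male mice, were stained with antibodies, sorted as a skeletal stem cell population named ocSSC in the sample titles, and were not cultured. The ages were postnatal day 3 (plate 9), 2 months (plates 1, 3 and 4) and 24 months (plates 2, 5 and 12). No genotype, strain, transgene or animal is named in the labels, so plates of an age may or may not come from separate mice. Each age was therefore treated as 1 sample, and no p-value was computed.

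Cells were kept if they had 1000 or more genes, 50000 or more gene reads and less than 20% of reads in mitochondrial genes. That left 68 of 95 wells at postnatal day 3 (71.6%). At 2 months 15, 70 and 69 cells were kept on plates 1, 3 and 4 (15.6%, 72.9% and 72.6% of their wells), and at 24 months 5 on each of plates 2, 5 and 12 (5.21% of wells). Summed gene reads of the kept cells were 75456569, 125303949 and 43082394 at the 3 ages in that order. By the exact 95% binomial interval, a gene found in 0 of the 15 cells of 24 months may be in as many as 21.8% of such cells, and one found in 0 of the 68 cells of postnatal day 3 in as many as 5.28%. Levels are CPM, counts scaled to 1000000 gene reads, of the cells summed by plate, and an age's level is the mean of its plates, with the SD over plates where there are 3. Plates of 24 months also stood apart in cell markers. The 6 cartilage markers summed to between 298 and 3766 CPM on the plates of 24 months, against 52824 to 72215 CPM at 2 months. At postnatal day 3 they summed to 71386 CPM. Marrow stromal markers summed to 4759 to 23129 CPM at 24 months, against 0.243 to 178.3 CPM at 2 months, with 406 CPM at postnatal day 3. Single genes carried much of this: the sum of plate 12 was Ebf1 alone (4759 CPM), and that of plate 2 was mostly Cxcl12 (19961 CPM). The part of these markers in the age differences of the protease and inhibitor genes was not tested. Osteoblast markers summed to 26508 CPM on the youngest plate, 10452 to 23457 CPM at 2 months and 10795 to 59333 CPM at 24 months, and the sum of the youngest plate was mostly Col1a1. Fibroblast and tendon markers summed to 5263 CPM, 819 to 4448 CPM and 5162 to 15249 CPM at these ages. That sum was mostly Dcn on every plate of 2 months and of 24 months (11786, 4783 and 13207 CPM on plates 2, 5 and 12). At postnatal day 3 Dcn had 1171 CPM. Osteoclast markers summed to 419, 78.6 to 427 and 106.02 to 913 CPM, and mural and muscle markers to 349.6, 0 to 0.458 and 0 to 176.4 CPM. No blood cell or endothelial marker reached 10 CPM at any age, and Mmp9, the gelatinase typical of osteoclasts, had 0 reads at all 3.

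Matrix metalloproteinases are zinc enzymes made as inactive proenzymes. The membrane-anchored Mmp14 protein activates proMmp2 on the cell surface, with Timp2 protein bridging the pair, while an excess of Timp2 blocks the reaction. Mmp13 is the main collagenase of mouse bone and cartilage, made by osteoblasts and by hypertrophic chondrocytes, and Mmp3 (stromelysin 1) cuts proteoglycans and activates other proenzymes. Adamts4 and Adamts5 are the chief aggrecanases, which cut the cartilage proteoglycan aggrecan, and Adamts1 cuts aggrecan and versican. Timp1, Timp2 and Timp3 are secreted inhibitors, and Timp3, which binds to the matrix, also inhibits the aggrecanases.

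The genes stood at very different levels, compared here as mean CPM per kilobase of exon. At postnatal day 3 the order was Mmp2 (716 CPM per kilobase), Timp2 (316) and Mmp14 (216.5), followed by Timp1 (63.2), Timp3 (32.7) and Adamts1 (17.8). Adamts4 and Adamts5 were under 1 CPM per kilobase there, and Mmp3 and Mmp13 had 0 reads. At 2 months Timp2 led with 268.7 CPM per kilobase, before Mmp13 (172.1), Mmp2 (98.4), Timp3 (65.6), Timp1 (44.7) and Mmp14 (39.03). The plate ranges of neighbours in that order overlapped, so the order of neighbours is not beyond the spread between plates. The lowest plate of Timp2 (166.5) did lie above the highest plates of Mmp2 (133.8), Timp3 (69.1), Timp1 (76.1) and Mmp14 (63.2). At 24 months Mmp2 led with 395 CPM per kilobase, before Timp3 (230), Timp1 (111.2), Timp2 (80.97), Mmp13 (62.6) and Mmp14 (38.5), again with overlapping plate ranges of neighbours. Of these genes only Mmp14 had its highest plate (86.2) below the lowest plate of Mmp2 (90.7). Adamts4 had under 1 CPM per kilobase at each age.

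**Figure D1:**
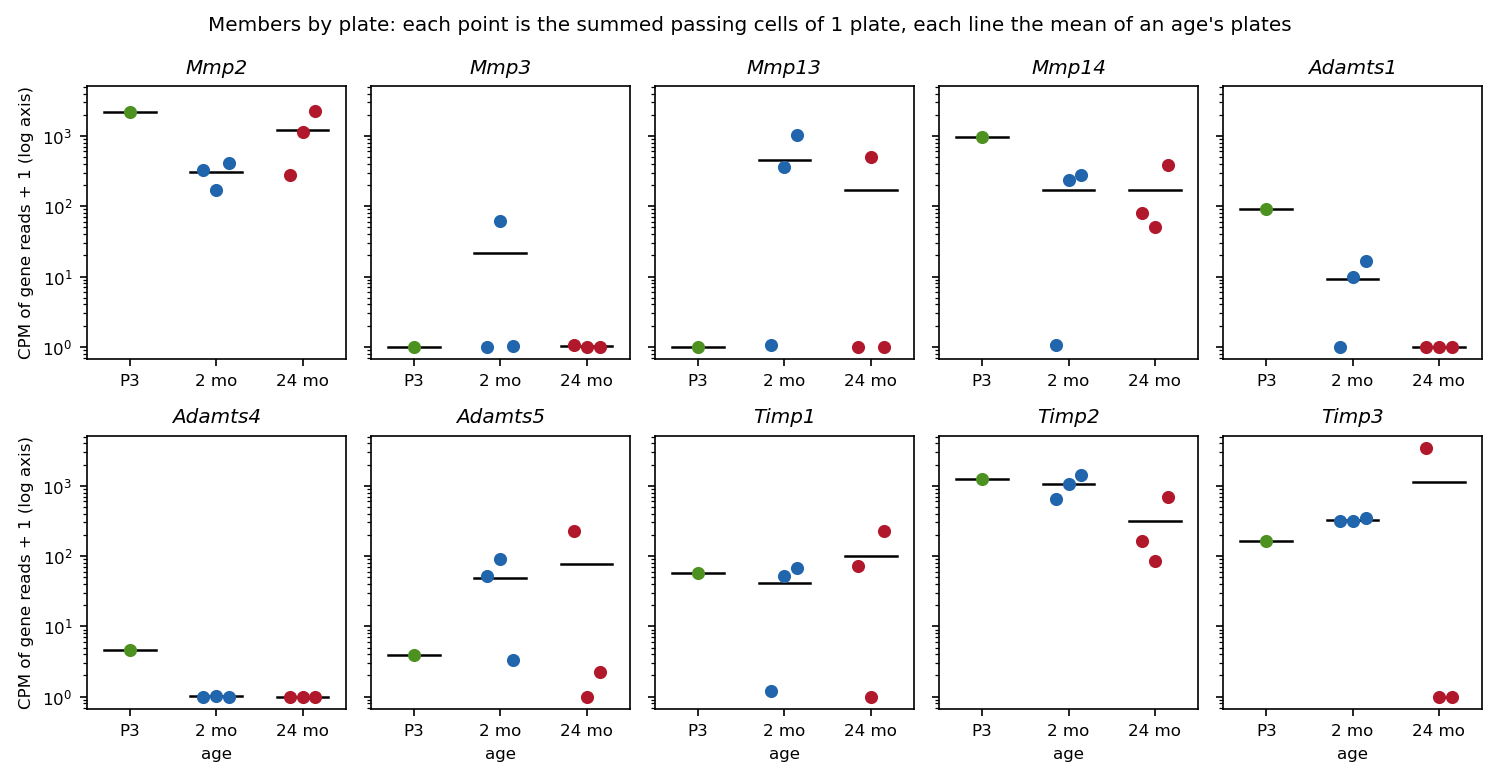
Level of each of the 10 genes by age (P3, postnatal day 3; mo, months), as CPM of gene reads plus 1 on a log axis; each point is 1 plate and each line the mean of an age's plates. Mmp2, Mmp14 and Adamts1 were highest on the plate of postnatal day 3 against the 3 plates of 2 months, while Mmp13 was at 0 reads on it.

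Between 2 months and postnatal day 3 the protease genes parted ways. Mmp13 was higher at 2 months, and Mmp2, Mmp14 and Adamts1 were lower, whereas none of the 3 Timp genes passed the rule of size. The rule asked for at least 10 CPM at the higher age, a difference of at least 2-fold and plates that do not overlap. It took 4 of the 10 genes (1 higher, 3 lower), and 37.7% of the 9656 genes that reached 10 CPM at 2 months or at postnatal day 3 (9.98% higher, 27.7% lower). With 9 of the 10 genes at that level, a share of calls near the background is not a result about the set. Their median log2 ratio with 1 CPM added was -0.23, against -0.18 over all genes with at least 5 CPM, and both medians stayed at these values with genes at 0 reads set to the level of 3 reads. Cell markers moved between these ages too. Of 8 osteoblast markers 5 were higher and 1 lower at 2 months by the same rule (median log2 ratio 3.09), among them Ibsp at 4744 against 329 CPM and Spp1 at 5497 against 259.5 CPM, with Col1a1 the lower one. Of 8 fibroblast and tendon markers 7 were lower (median log2 ratio -4.24), such as Postn at 7.33 against 2704 CPM and Scx at 5.60 against 35.8 CPM. Of the 6 cartilage markers Sox9 was higher and none lower. The part of these shifts in the differences of the 10 genes was not tested.

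Mmp2 (ENSMUSG00000031740.8, chromosome 8, 92827291 to 92853420, plus strand, GRCm38) encodes gelatinase A. It had 326, 170.3 and 412 CPM on plates 1, 3 and 4 at 2 months, against 2205 CPM at postnatal day 3. Every plate of 2 months was therefore below the younger plate, and the mean of 303 ± 122.4 CPM (SD, n = 3 plates) made a log2 ratio of -2.86, or 7.28-fold lower. A read of Mmp2 was held by 44 cells at 2 months (28.6%, exact 95% interval 21.6 to 36.4) and by 55 cells at postnatal day 3 (80.9%, 69.5 to 89.4), after each cell was thinned to 50000 reads. Without thinning the counts were 54 and 58 cells. Among cells that held it, the median level was 525 CPM at 2 months and 1854 CPM at postnatal day 3, so both the share of cells and the level within them were lower at the later age. These intervals cover counting error only.

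Mmp14 (chromosome 14, 54431612 to 54445364, plus strand) encodes the membrane-type proteinase that activates proMmp2. Its levels were 0.0485, 236.7 and 277.2 CPM on plates 1, 3 and 4, against 951 CPM at postnatal day 3. Plate 1, with 15 cells, held a single read of it, and the other plates of 2 months were also below the younger plate. The log2 ratio was -2.47 (mean 171.3 ± 149.7 CPM at 2 months, SD, n = 3 plates). Cells with a read numbered 37 at 2 months (24.0%, 17.5 to 31.6) and 46 at postnatal day 3 (67.6%, 55.2 to 78.5).

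Adamts1 (chromosome 16, 85793827 to 85803113, minus strand) had 0, 8.97 and 15.8 CPM on the plates of 2 months, against 91.3 CPM at postnatal day 3, a log2 ratio of -3.32. All 3 plates were below the younger one, but few cells carried the signal, 3 cells at 2 months (1.95%) and 6 at postnatal day 3 (8.82%) after thinning. A single cell held 50.9% of the reads of postnatal day 3. Its chromosomal neighbour Adamts5 (chromosome 16, 85856173 to 85901828, minus strand) did not follow it. Adamts5 had 50.9, 89.8 and 2.29 CPM on plates 1, 3 and 4 at 2 months, against 2.90 CPM at postnatal day 3, and plate 4 lay below the younger plate, so its log2 ratio of 3.64 was not called. The cells with Adamts5 numbered 16 (10.4%, 6.06 to 16.3) and 2 (2.94%, 0.358 to 10.2) at the same ages. Without plate 4 the log2 ratio was 4.19 and passed the rule.

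Mmp13 (ENSMUSG00000050578.10, chromosome 9, 7272514 to 7283331, plus strand) had the largest log2 ratio of the 10 genes in this comparison (8.85). It had 0.0485, 363 and 1017 CPM on plates 1, 3 and 4 at 2 months, against 0 reads in 75456569 at postnatal day 3. The mean at 2 months was 460 ± 515 CPM (SD, n = 3 plates). Set against the level that 3 reads would give at postnatal day 3 (0.0398 CPM), that mean was at least 11571-fold higher. The bound counts reads and not cells. Plate 1 held a single read and lay above the younger plate by that read alone, and without plate 1 the log2 ratio was 9.43 and the call held. Reads of Mmp13 came from 17 cells at 2 months (11.04%) and from 0 of 68 at postnatal day 3, with an exact interval of 0 to 5.28%. After thinning, 14 cells of 2 months kept a read (9.09%, 5.06 to 14.8). That interval overlaps the 0 to 5.28% of postnatal day 3, while the 2-month interval before thinning (6.56 to 17.1) does not. Levels among the 17 cells ran from 0.453 to 19467 CPM with a median of 2030.2 CPM, and the top cell held 31.5% of all Mmp13 reads of that age.

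Mmp3, which lies on the same chromosome (7445822 to 7455975, plus strand), was nearly absent. It had 0, 61.1 and 0.0208 CPM on plates 1, 3 and 4 at 2 months, against 0 reads at postnatal day 3, and 2 cells of plate 3 held nearly all of it. Adamts4 (chromosome 1, 171250421 to 171260637, plus strand) had 2 reads in 1 cell at 2 months and was read in 2 cells at postnatal day 3, at 0.0118 CPM on average against 3.67 CPM. Neither gene passed the rule in this comparison, but Mmp3 was called higher without plate 1 (log2 ratio 4.98).

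The start regions of the genes differ in letters as well. RefSeq promoters (GRCm38.p6, windows of 300 bases around the start) were at hand for 7 of the 10 genes, and 3 are shown, those of Mmp13 and Mmp3, which had 0 reads at postnatal day 3 and lie on the same chromosome, and that of Mmp14, which was lower at 2 months. Capitals mark the AP-1 letters TGANTCA, the Runx letters AACCACA, the TATA box letters TATAAA and the GC box letters GGGCGG, each searched on both strands (TGANTCA is its own reverse form, and no matches overlap). The windows are chr9:7272264-7272563 (Mmp13), chr9:7445572-7445871 (Mmp3) and chr14:54431348-54431647 (Mmp14), all on the plus strand.
Mmp13: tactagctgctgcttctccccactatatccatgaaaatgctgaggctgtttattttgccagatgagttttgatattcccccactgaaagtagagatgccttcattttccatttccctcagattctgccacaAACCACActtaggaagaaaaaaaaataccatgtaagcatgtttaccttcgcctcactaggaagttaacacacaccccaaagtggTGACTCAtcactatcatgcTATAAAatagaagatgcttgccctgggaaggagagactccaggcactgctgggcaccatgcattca
Mmp3: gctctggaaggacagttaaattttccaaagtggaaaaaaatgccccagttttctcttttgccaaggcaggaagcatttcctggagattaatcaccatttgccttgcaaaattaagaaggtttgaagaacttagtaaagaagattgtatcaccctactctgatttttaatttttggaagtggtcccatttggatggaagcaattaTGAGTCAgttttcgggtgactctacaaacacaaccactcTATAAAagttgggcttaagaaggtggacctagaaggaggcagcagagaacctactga
Mmp14: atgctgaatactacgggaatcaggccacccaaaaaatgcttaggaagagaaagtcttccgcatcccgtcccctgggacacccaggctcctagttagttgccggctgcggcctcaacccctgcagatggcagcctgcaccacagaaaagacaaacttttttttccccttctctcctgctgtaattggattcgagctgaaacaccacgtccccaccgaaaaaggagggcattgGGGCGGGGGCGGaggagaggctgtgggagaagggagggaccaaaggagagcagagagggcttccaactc
Mmp13 holds TGANTCA 35 to 29 bases before its start, AACCACA further upstream and TATAAA at 16 to 11. Mmp3 holds TGANTCA at 46 to 40 and TATAAA at 7 to 2, and no AACCACA or GGGCGG in this window. Mmp14 holds GGGCGG at 19 to 14 and again at 13 to 8, and neither TGANTCA nor TATAAA. Adamts1, Timp1, Timp2 and Timp3 hold GGGCGG and no TGANTCA. Of the 32851 promoters of this length in the table, 7.81% hold TGANTCA, 5.27% AACCACA, 13.6% TATAAA and 35.7% GGGCGG. A match of letters is a description of the window and not a site in use.

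The inhibitor genes kept closer levels. Timp2 (chromosome 11, 118301069 to 118355740, minus strand) had 649, 1055 and 1438 CPM on plates 1, 3 and 4 at 2 months, against 1231 CPM at postnatal day 3, and the younger plate lay inside the range of 2 months (log2 ratio -0.23). It was held by 93 cells (60.4%, 52.2 to 68.2) at 2 months and 53 cells at postnatal day 3 (77.9%, 66.2 to 87.1). Timp1 (chromosome X, 20870166 to 20874735, plus strand) had 0.194, 51.3 and 67.6 CPM at 2 months, against 56.1 CPM at postnatal day 3 (log2 ratio -0.49), again with overlap, and was called lower without plate 4 (-1.10). Timp3 (chromosome 10, 86300372 to 86349506, plus strand) was the most even gene across plates of 2 months, at 318, 313 and 341 CPM, against 161.8 CPM at postnatal day 3. Its groups did not overlap, but the log2 ratio of 0.998 lay just under the 2-fold limit. The call changes with the scaling: the log2 ratio was 1.19 with edgeR's TMM factors, 2.28 for the mean of the cells' own CPM and 2.46 after thinning, each past the rule. It was 1.012 without plate 1 and 1.02 without plate 3, also past it. The share of cells with Timp3 was 37.7% (29.99 to 45.8) at 2 months and 36.8% (25.4 to 49.3) at postnatal day 3.

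**Figure D2:**
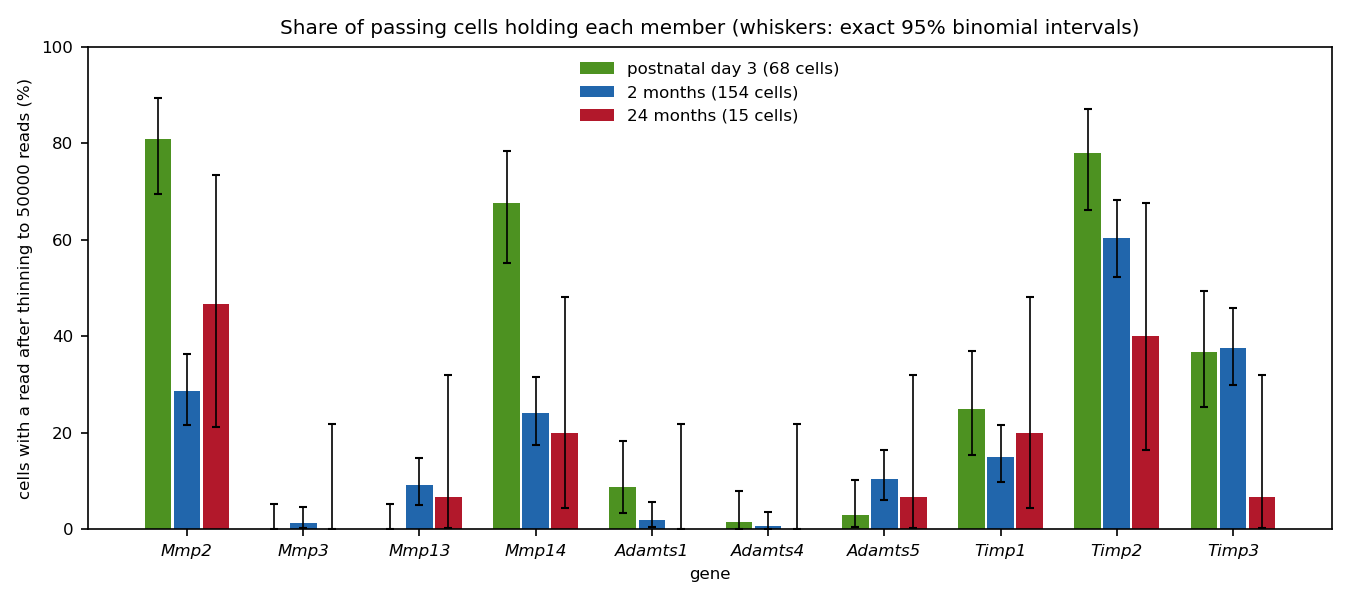
Share of passing cells with at least 1 read of each gene after every cell was thinned to 50000 reads, in percent, for postnatal day 3, 2 months and 24 months; whiskers are exact 95% binomial intervals over cells. The shares for Mmp2 were 80.9%, 28.6% and 46.7%, and those for Mmp14 were 67.6%, 24.0% and 20%.

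Between 24 and 2 months no gene of the set passed the rule of size. That is 0 of 10 genes, 8 of them with at least 10 CPM at either age, while 31.2% of the 8804 genes of the table at that level passed it (1.54% higher, 29.6% lower). The median log2 ratio of the 9 genes with at least 5 CPM was -0.02, against -2.63 over all genes (-2.75 with genes at 0 reads set to the level of 3 reads). Several of the 24-month means behind it rest on single cells, as given below. Neither this median nor the lack of calls is therefore a result about the set. Mean levels differed by at least 2-fold for 6 of the 8, and for all 6 the plates of the ages overlapped.

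Mmp2 had 279.1, 1139.5 and 2229 CPM on plates 2, 5 and 12 at 24 months, against 326, 170.3 and 412 CPM on plates 1, 3 and 4 at 2 months. Plates 5 and 12 were above every plate of 2 months, but plate 2 lay among them, so the log2 ratio of 2.00 was not called. It was called without plate 2 (log2 ratio 2.47) and after thinning (2.41). The gene was held by 7 of 15 cells at 24 months (46.7%, 21.3 to 73.4) and 44 cells at 2 months (28.6%, 21.6 to 36.4). The 15 cells of 24 months, pooled over plates 2, 5 and 12, were also split by Ibsp, the bone sialoprotein gene of osteoblasts. Mmp2 was held by 6 of 7 cells with a read of Ibsp and by 1 of 8 cells without. Ibsp was added after the cells had been seen, and splits of these cells by other markers are not given here. Plate 5 alone had 4 cells with Ibsp and 4 with Mmp2, so the pooled counts mix cells with plates. A link of Mmp2 with Ibsp at this age was not tested.

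Timp2 was at the other side. Its levels were 160.7, 85.4 and 700.3 CPM on plates 2, 5 and 12, against 649, 1055 and 1438 CPM on plates 1, 3 and 4, and only plate 12 reached into the range of 2 months. The log2 ratio of -1.73 was not called, but it was called with TMM factors (-2.03), without plate 1 (-1.98) and without plate 12 (-3.08). Cells with Timp2 were 6 of 15 (40%, 16.3 to 67.7) at 24 months and 93 at 2 months (60.4%, 52.2 to 68.2).

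Single cells decided several of the other means. Timp3 had 3407.5 CPM on plate 2 and 0 on plates 5 and 12, against 318, 313 and 341 CPM at 2 months, and all 71839 of its reads at 24 months came from 1 cell. Without plate 2 its log2 ratio turned to -8.34 and was called lower, against 1.81 and no call with it. Adamts5 likewise had 226.1, 0 and 1.24 CPM on plates 2, 5 and 12, with 99.7% of its reads in 1 cell, and its log2 ratio of 0.66 became -4.91, called lower, without plate 2. Mmp13 had 0, 502 and 0 CPM on the same plates, against 0.0485, 363 and 1017 CPM at 2 months. Of its 24-month reads 99.8% lay in 1 cell of plate 5, and the log2 ratio of -1.45 became -8.85, called lower, without that plate.

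The remaining genes were near or below the limit of 15 cells. Mmp14 had 77.8, 50.4 and 378 CPM at 24 months, with 1 positive cell on each plate, against 0.0485, 236.7 and 277.2 CPM at 2 months (log2 ratio -0.02). Timp1 had 70.3, 0 and 225.97 CPM, against 0.194, 51.3 and 67.6 CPM (log2 ratio 1.29, and 1.87 and called without plate 5). Adamts1 was at 0 reads in 15 cells of 24 months, against 0, 8.97 and 15.8 CPM at 2 months, and it was called lower without plate 1. Mmp3 had 1 read at 24 months, and its 2-month mean of 20.4 CPM rested on plate 3. Without plate 3 its log2 ratio was 0.01.

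**Figure D3:**
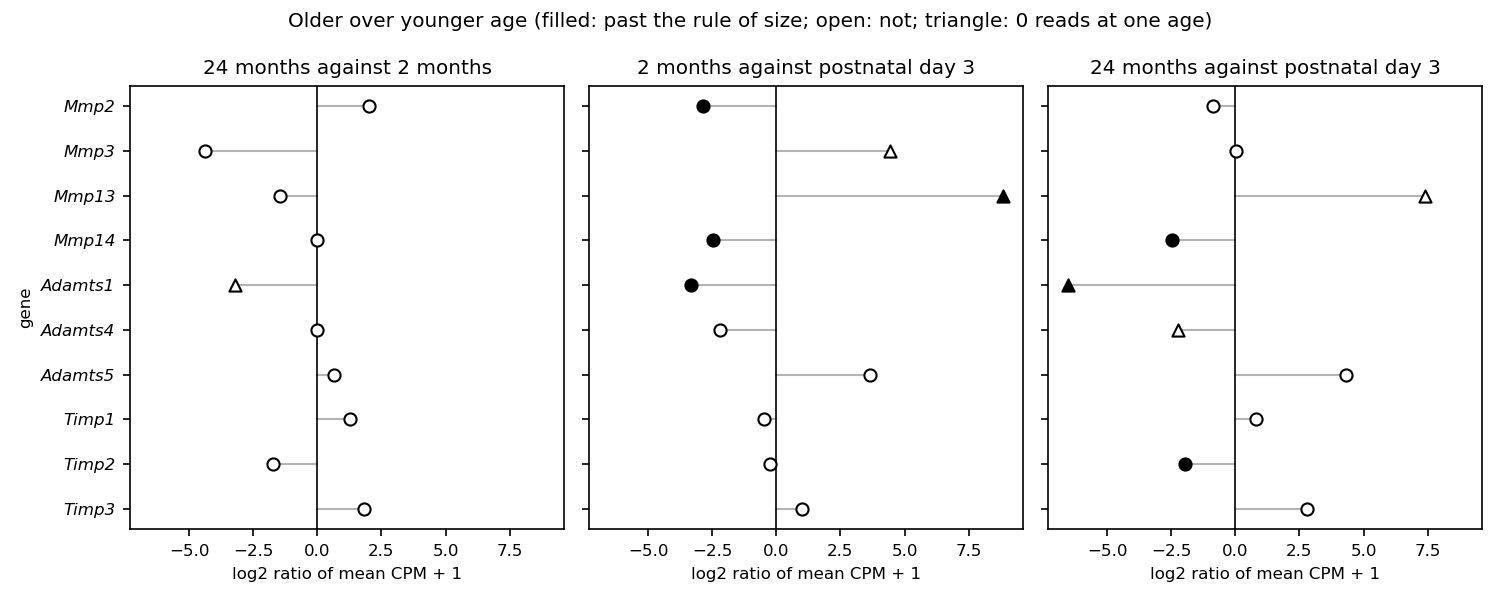
Log2 ratio of mean CPM plus 1, older over younger age, for the 10 genes in 3 comparisons; filled symbols passed the rule of size, open symbols did not, and triangles mark genes with 0 reads at 1 of the ages, whose position depends on the 1 CPM added. No symbol is filled for 24 months against 2 months, 4 are for 2 months against postnatal day 3, and 3 are for 24 months against postnatal day 3.

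Set against postnatal day 3, the cells of 24 months had less Mmp14, Adamts1 and Timp2. The rule took 3 of 10 genes, all lower, and 56.2% of the 9062 genes that reached 10 CPM (2.59% higher, 53.6% lower). The median log2 ratio was -0.03 over 8 genes of the set and -2.63 over all genes. Means that rest on single cells enter the median of the set here too, so it is not a result about the set. This comparison shares the 24-month plates and the plate of postnatal day 3 with the comparisons above. Mmp14 had 77.8, 50.4 and 378 CPM at 24 months, against 951 CPM at postnatal day 3 (log2 ratio -2.49). Timp2 had 160.7, 85.4 and 700.3 CPM, against 1231 CPM (log2 ratio -1.96). Adamts1 was at 0 reads, against 91.3 CPM, at least 1311-fold lower by the level of 3 reads over the cells of 24 months. That bound counts reads and not cells. The interval for 0 of 15 cells (0 to 21.8%) holds the share of postnatal day 3, 6 of 68 cells (8.82%). A single cell held 50.9% of the reads of postnatal day 3. Wells of 24 months that did not pass held 1750 reads of Adamts1, in 4 wells. Mmp2 spanned 279.1 to 2229 CPM and overlapped the 2205 CPM of postnatal day 3 (log2 ratio -0.86), but it was called lower in 4 of 12 alternatives, among them TMM factors (-1.05) and leaving out plate 12 (-1.63). The plate of postnatal day 3 and plates 2 and 12 share batch 3, and within that batch the log2 ratios were -2.05 for Mmp14, -1.51 for Timp2 and -6.53 for Adamts1, each still called. Timp1 was called higher there (log2 ratio 1.38, against 0.80 and no call over all plates). Timp3 (log2 ratio 2.80) and Adamts5 (4.30) were not called. Without plate 2 Timp3 was called lower (-7.35) and Adamts5 was at -1.27, while Adamts5 was called higher with cells of at least 500 genes (4.83) and with no cell filter (4.70). Mmp13, at 167.2 CPM on average against 0 reads, rested on plate 5 and was not called, since plates 2 and 12 also had 0 reads in their kept cells. It was called higher with cells of at least 500 genes and with no cell filter (at 0 reads in the youngest cells under both), where wells outside the kept cells enter. The ages 24 and 2 months share no batch, nor do 2 months and postnatal day 3, and in those comparisons the ages cannot be told apart from the batches.

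Proteases and inhibitors were also read in the same cells, with each cell thinned to 50000 reads. At postnatal day 3 a cell held a median of 3 of the 10 genes, at 2 months 2 and at 24 months 1. Kept cells differed in the same order in all genes read before thinning, with a median of 2234.5 genes at postnatal day 3. The medians were 1698, 1759 and 1777 on plates 1, 3 and 4, and 1096, 1134 and 1227 on plates 2, 5 and 12. Thinning sets the reads per cell and not the number of genes. The part of that number in the shares below was not tested. The genes of the activation complex, Mmp2, Mmp14 and Timp2, were found together in 35 cells at postnatal day 3 (51.5%, 39.03 to 63.8), 9 cells at 2 months (5.84%, 2.71 to 10.8) and none of the 15 cells at 24 months (0%, 0 to 21.8). The 9 cells of 2 months were 0 of 15 on plate 1, 6 of 70 on plate 3 and 3 of 69 on plate 4. A protease gene with a Timp gene was held by 54 cells at postnatal day 3 (79.4%), by 70 at 2 months (45.5%) and by 5 of 15 at 24 months (33.3%). Cells with a Timp gene and no protease gene numbered 3 (4.41%, 0.919 to 12.4), 51 (33.1%, 25.8 to 41.1) and 4 (26.7%, 7.79 to 55.1) at those ages. The reverse, a protease gene and no Timp gene, was seen in 8, 17 and 4 cells.

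**Figure D4:**
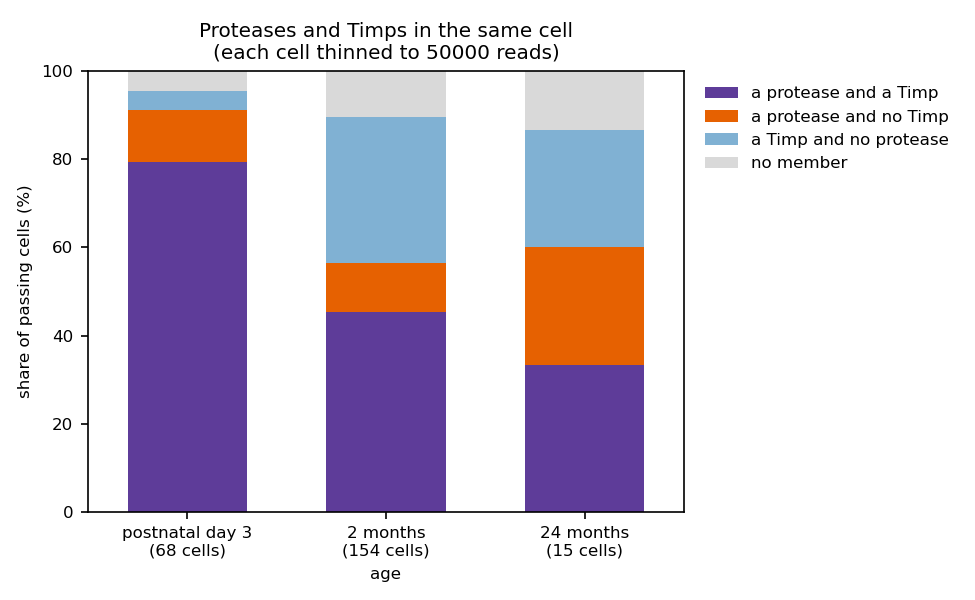
Share of passing cells, in percent, that held a protease gene and a Timp gene, only a protease gene, only a Timp gene or none of the 10 genes, by age, with each cell thinned to 50000 reads. Cells with only a Timp gene made 4.41% of the youngest, 33.1% of the 2-month and 26.7% of the 24-month cells.

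Summed per kilobase, the 7 protease genes stood at 952 CPM and the 3 Timp genes at 412 CPM at postnatal day 3, a ratio of 2.31. The ratio was 0.479, 0.738 and 1.13 on plates 1, 3 and 4 at 2 months. On plates 2, 5 and 12 at 24 months it was 0.160, 25.99 and 1.87, so the 24-month plates spanned both sides of the other ages. These plates had 5 kept cells each. On plate 2 Timp3 made 689.5 of the 809.9 CPM per kilobase of the Timp genes, all from 1 cell. Plate 5 had 0 reads of Timp1 and Timp3.

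Pairs of genes were little related from cell to cell. Over the 6 genes held by at least 10% of cells at 2 months, the mean of the within-plate Spearman correlations on plates 3 and 4 (70 and 69 cells) ran from -0.13 for Mmp14 and Timp3 to 0.26 for Mmp14 and Timp1. Cells of a plate share their library preparation and sparse counts, so these are descriptions. At 2 months Timp2 was held by 29 of 37 cells with Mmp14 (78.4%, 61.8 to 90.2) and by 64 cells without (54.7%, 45.2 to 63.9). At postnatal day 3 the counts were 40 of 46 cells with Mmp14 (86.96%) and 13 of 22 without (59.1%). Among 3891 genes held by at least 10% of the cells of 2 months, those most like a member over plates 3 and 4 were Serpinf1 (mean correlation 0.48), Cand1 (0.33) and Chst2 (0.31) for Mmp2. For Mmp14 they were Rab1b (0.44), Htt (0.35) and Rpl5 (0.34), and for Timp1 Prkg2 (0.41), Agpat5 (0.38) and Fkbp2 (0.37). Timp2 was most like Cavin1 (0.38), Pls3 (0.32) and App (0.31), Timp3 most like Sdcbp (0.39), Plbd2 (0.38) and Slc6a6 (0.32), and Adamts5 most like Klf7 (0.37) and Dpt (0.31). Only the correlation of Mmp2 with Serpinf1, the gene of the secreted protein PEDF, exceeded 0.45 on each of the plates (0.49 and 0.46). Some means came mostly from 1 plate: with Mmp2, Chst2 had 0.60 on plate 3 and 0.03 on plate 4, and Cand1 0.50 and 0.15. The named genes are the highest of 3891 compared, and no test was made of them.

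Mmp13 was unevenly spread over cells that held different marker genes. Cnmd encodes chondromodulin, a protein of cartilage cells, and marked most cells of 2 months (7 of 15, 48 of 70 and 48 of 69 on plates 1, 3 and 4). A read of Mmp13 was held by 2 of those cells (1.94%, 0.236 to 6.84) and by 12 of the 51 cells without Cnmd (23.5%, 12.8 to 37.5). The split was alike on both large plates, with 0 of 48 against 5 of 22 cells on plate 3 and 2 of 48 against 6 of 21 cells on plate 4. Ibsp, a matrix protein gene of osteoblasts, ran the other way: 9 of 35 cells with Ibsp held Mmp13 (25.7%, 12.5 to 43.3), against 5 cells without (4.20%, 1.38 to 9.53). Spp1, the osteopontin gene, gave 8 of 44 cells (18.2%) against 5.45% of the cells without it. Ibsp and Spp1 were added to the markers after the cells had been seen. Bglap, the planned osteoblast marker, and Postn, the planned fibroblast marker, were also used to split the cells, but their counts are not given here. For Cxcl12, a marrow stromal marker, the counts were 4 of 6 against 1 of 64 cells on plate 3 but 1 of 7 against 7 of 62 on plate 4. Col10a1, the collagen of hypertrophic chondrocytes, was found after thinning in 3 cells of 2 months, and 1 of them held Mmp13.

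**Figure D5:**
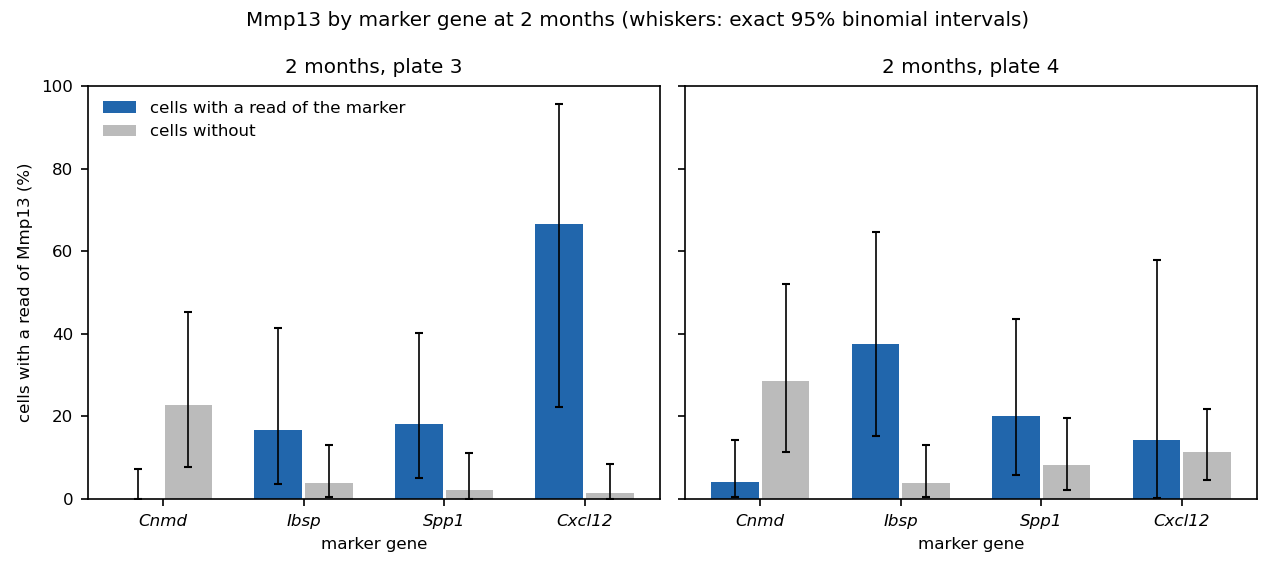
Share of 2-month cells with a read of Mmp13, in percent, among cells with a read of a marker gene (left bar) and without one (right bar), on plates 3 and 4, with exact 95% binomial intervals as whiskers. On plate 3 Mmp13 was in 0 of 48 cells with Cnmd and 5 of 22 without, and on plate 4 in 2 of 48 and 6 of 21.

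Single cells differed in the markers they held. Without thinning, 6 of the 17 Mmp13 cells of 2 months held a read of Cnmd. The highest, a cell of plate 4, had 19467 CPM of Mmp13 with 176871 CPM of Spp1, 12713 CPM of Ibsp, 1122 CPM of Col10a1 and no read of Cnmd. The next, on plate 3, had 19202 CPM of Mmp13 with 66832 CPM of Spp1 and no Cnmd or Ibsp. A cell of plate 4 with 11769 CPM of Mmp13 had 537 CPM of Cnmd and 6436 CPM of Ibsp but no Spp1, and one of plate 3 with 2218 CPM of Mmp13 had 11.5 CPM of Cnmd and neither Ibsp nor Spp1. The 24-month cell that carried nearly all reads of its age had 2726 CPM of Mmp13 beside 9106 CPM of Spp1, 4997 CPM of Ibsp and 2126 CPM of Mmp2. Of the other genes, Timp3 was held by 43 cells with Cnmd (41.7%, 32.1 to 51.9) and 15 of 51 without (29.4%, 17.5 to 43.8), with intervals that overlap. For Mmp2, Mmp14 and Timp2 at 2 months the intervals with and without Cnmd overlapped too. At postnatal day 3, Timp2 was held by 29 of 42 cells with Cnmd and 24 of 26 without, and Mmp14 by 25 of 42 and 21 of 26.

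Genes that regulate protease genes were called in both directions of age. Of 18 such genes, all with at least 10 CPM, 9 were higher and 2 lower at 2 months than at postnatal day 3. The shares over all genes were 9.98% higher and 27.7% lower. The list was chosen with earlier results of these data known, so its calls are a description and no test against that background. Runx2 and Sox9 are also among the osteoblast and cartilage markers. The AP-1 genes Fos, Fosb, Fosl1, Jun and Junb were higher, at 3627, 500.3, 15.5, 4841 and 4043 CPM at 2 months against 1324, 47.8, 0, 388 and 213.6 CPM at postnatal day 3. Fosl2, another AP-1 gene of the list, was not called (47.3 against 17.5 CPM), since plate 1 had 2.86 CPM. Fosl1 was read in few cells of 2 months, 1, 3 and 1 on plates 1, 3 and 4. Cebpb (log2 ratio 4.63), Runx2 (2.34), Sdc4 (2.05), a syndecan, and Sox9 (1.70), the cartilage master regulator, rose too, while Rela (-1.89) and Tnfrsf1a (-1.43) fell. The call of Cebpb rests on a narrow gap, 9.02 CPM in 1 cell of plate 1 against 8.91 CPM at postnatal day 3. At 24 months against 2 months 6 were lower and none higher: Junb (-4.86), Fosb (-4.67), Fosl1 (0 reads at 24 months), Jun (-3.39), Fos (-2.59) and Sox9 (-2.56). With 29.6% of all genes lower in this comparison, 6 of 18 is near the background. The median log2 ratio of the list was 1.58 for 2 months against postnatal day 3 and -1.34 for 24 months against 2 months, beside -0.18 and -2.63 over all genes.

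Among 19 other matrix metalloproteinase genes, 3 had at least 10 CPM at 2 months or postnatal day 3, and all 3 fell, in a comparison where 27.7% of all genes fell and 9.98% rose, which is also the background for the lists that follow at these ages. Mmp11, the stromelysin 3 gene, had 0.0177 CPM at 2 months against 24.7 CPM at postnatal day 3. Mmp16, a membrane-type relative of Mmp14, had 16.5 against 155.7 CPM (log2 ratio -3.16), and Mmp23 had 35.3 against 96.5 CPM (-1.42). None of the list was called between 24 and 2 months. Of 16 other Adamts genes, Adamts7 (log2 ratio -4.59), Adamts19 (-4.49) and Adamts10 (-1.56) fell and Adamts18 (5.12) rose at 2 months against postnatal day 3. Adamts10 (-5.96) and Adamts18 (-4.76) were lower at 24 months than at 2 months, 2 of the 6 with at least 10 CPM. Over all genes 29.6% were lower and 1.54% higher. The call of Adamts10 rests on a narrow gap, 1.12 CPM in 1 cell of plate 1 (2 months) against 0.746 CPM on plate 5 (24 months).

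Other inhibitors showed calls in both directions. At 24 months Serpine2, which inhibits serine proteases such as the plasminogen activators, had 10432, 4609 and 4303 CPM on plates 2, 5 and 12, against 788, 2535 and 1150.3 CPM on plates 1, 3 and 4 (log2 ratio 2.11). Serping1, the C1 inhibitor gene, was also higher (log2 ratio 5.35). Reck, a membrane-anchored inhibitor of matrix metalloproteinases, had 0 reads on the 3 plates of 24 months against 102.9, 155.9 and 108.9 CPM on the plates of 2 months, and Serpinh1, a collagen chaperone of the serpin family, was lower (log2 ratio -2.02). From postnatal day 3 the calls at 2 months were Cst3 (3.76) and Serpine2 (1.53) higher and A2m (-2.13) lower. Of 23 activators and other matrix proteases, Ctsb, the cathepsin B gene, was the only call between 24 and 2 months, at 2229 against 941 CPM. At 2 months against postnatal day 3, Pcsk5 (-3.65), Adam9 (-3.20), Adam17 (-2.69), Plaur (-2.27), Ctsl (-2.14) and Adam15 (-1.39) fell and Fap (1.58) rose.

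The substrates of these enzymes gave 6 genes lower and 1 higher of 15 between 24 and 2 months, against 29.6% lower and 1.54% higher over all genes. Aggrecan, the target of the aggrecanases, had 65.1 CPM (Acan) at 24 months against 1545 CPM at 2 months (log2 ratio -4.55), and Col2a1, cartilage collagen, had 1259 against 46269 CPM (-5.20). Cnmd, Col9a1 and Matn3 had 0 reads at 24 months, Col11a1 was lower (-2.90) and Dcn, the decorin gene, was higher (2.29). The lower substrates other than Col11a1 are also 5 of the 6 cartilage markers, so they are not a set apart from those markers, and the sixth, Sox9, was lower too. At 2 months against postnatal day 3, 5 fell and Comp (1.30), a cartilage matrix gene, rose. Those that fell were Col3a1 (-5.41), Col10a1 (-4.37), Col1a1 (-1.83), Bgn (-1.54) and Col1a2 (-1.52).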

How the data were processed

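The table holds RSEM expected counts per gene, deposited by the authors. The tools named are bcl2fastq 2.18, STAR 2.4 and RSEM 1.2.21, with genome build GRCm38.p6, per the submitters' processing notes. Annotation release and filters are not given in the sources used here. Counts were rounded to whole numbers (14.8% of values above 0 were not whole). ERCC rows stayed out of totals, and 1 column with no matching sample stayed unused. RSEM shares reads between similar genes.

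Coordinates and exon lengths are from GENCODE vM21. Sort wells hold 1 cell, so no doublet caller was run, and no index pair was shared (0 of 670 columns). Plate sums were scaled to CPM, and an age is the mean of its plates. Ratios had 1 CPM added. A gene was called with at least 10 CPM at the higher age, at least 2-fold and no overlap of plates. The rule was checked on simulated counts with counting error only, so that check does not cover spread between cells or plates. No test was made, because the labels name no animals and batch differs with age. Shares of cells used 50000 randomly drawn reads per cell and exact (Clopper-Pearson) 95% binomial intervals, which cover counting error only. A kept cell had a median of 1100490 reads on the plate of postnatal day 3, 677688 at 2 months and 2733860 at 24 months.

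The members and lists were chosen with earlier results of these data known. Named were the 10 members, up to 8 called genes per list and direction, and up to 3 genes with a mean within-plate Spearman correlation of at least 0.3. Ibsp, Spp1 and a share of cells at 10 CPM were added after the data were seen. Alternatives were TMM factors (edgeR 4.0.16 in R 4.3.3), the mean of cells' CPM, thinning, other cell filters, batch 3 alone and leaving out plates. The remaining work was done in Python 3.11.15 with scipy 1.17.1, pandas 2.3.3, numpy 2.4.6 and matplotlib 3.10.9.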

Additional observations from a re-analysis of the deposited data

Results flagged for a closer look

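Wells that did not pass as cells enter no comparison, yet some held reads of the 10 genes. At least 1 read of any of them was found in 6 of 27 such wells of postnatal day 3 (22.2%), in 40 of 2 months (30.1%) and in 61 of 24 months (22.3%). Their median depths were 2506, 33428 and 3337 gene reads per well at these ages.

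Mmp13 stood out among them. It was read in 29 such wells at 24 months (10.6%, exact 95% interval 7.23 to 14.9), with 137590 reads in all, and in 12 at 2 months (9.02%), with 142769 reads. At postnatal day 3 it was in 0 of 27 wells. The 24-month wells were 6, 11 and 12 of 91 on plates 2, 5 and 12, so plates 2 and 12, with 0 reads of Mmp13 in their kept cells, held it in wells that did not pass. The top well held 73.8%, 54.1% and 33.6% of those reads on the 3 plates. Timp3 was read in 16 of the 24-month wells, Timp2 in 13, Mmp14 in 10 and Adamts1 in 4.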

How the results depend on the processing

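No called result changed direction, while the uncalled log2 ratios of Timp3 (1.81) and Adamts5 (0.66) for 24 against 2 months turned to -8.34 and -4.91 without plate 2. At 2 months against postnatal day 3 the calls of Mmp2 (log2 ratio -3.15 to -2.58), Mmp13 (5.55 to 10.54), Mmp14 (-2.99 to -1.88) and Adamts1 (-4.07 to -2.00) held in 11 of 11 alternatives, and at 24 months against postnatal day 3 those of Mmp14, Adamts1 and Timp2 held in 12 of 12. Counts of members called moved as follows, and the cause was not tested beyond what each setting changes. For 24 against 2 months (0 called), TMM factors gave 1 lower (Timp2), thinning 1 higher (Mmp2), at least 500 genes per cell 1 lower (Timp2) and no cell filter 2 lower (Mmp3, Timp2). The strictest cell filter, which also asked for 200000 reads, left 1 cell at 24 months and gave 7 calls, 2 higher and 5 lower, with 83.5% of all genes called. Leaving out a plate gave 0 to 3 calls, 0 to 1 higher and 0 to 2 lower. For 2 months against postnatal day 3 (4 called, 1 higher), 2 were higher with TMM factors, cell means, thinning, the strictest filter and no cell filter, and leaving out a plate gave 5 to 6 calls, 2 to 3 of them higher. For 24 months against postnatal day 3 (3 called, all lower), at least 500 genes and no cell filter each gave 6 (Mmp13 and Adamts5 higher, so 2 higher, and 4 lower), the strictest filter gave 5 (1 higher, 4 lower), batch 3 alone gave 1 higher, and leaving out a plate gave 4 calls, 0 to 1 higher. The median of all genes moved by 0.32 for 24 against 2 months with cell means and by 0.11 for 2 months against postnatal day 3 with TMM factors. The plate of postnatal day 3 has no second plate and could not be left out. At 24 months the number of cells, at 15, limits every value. Over all alternatives, 314 of the log2 ratios of the 10 genes kept within 1 SD and 56 moved, as did 2 of the shares of cells. No paired analysis was possible because the samples' replicate numbers only follow accession order, the table's columns carry none, and the result comes from no test.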
